A study of Mus musculus with 6 samples.

Results

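Maturing 3T3-L1 adipocytes exposed to ritonavir were compared with cells given its ethanol vehicle, by subtracting the log2 value of each gene on the array labelled ethanol from that on the array labelled ritonavir. The comparison takes 2 of the 6 arrays of the series, and covers 18194 genes with a named probe set, of which 12386 were detected. 3T3-L1 is a mouse preadipocyte line that turns into fat cells in culture. All groups were induced with insulin, dexamethasone and isobutylmethylxanthine and then kept in medium with insulin. For 5 days of that second phase the medium held 20 µM ritonavir, a protease inhibitor used against HIV, or 1 µM tenofovir, a reverse transcriptase inhibitor, or 0.1% ethanol. Further groups received ritonavir together with DMSO at 0.1% or with a conjugated linoleic acid isomer, and the arrays with the isomers are not used here. RNA from 4 replicate experiments was pooled before each array, so every group is 1 array, no spread between replicates exists, and no difference below was tested. "Higher" and "lower" therefore describe these arrays, and where a pair of values is given, the ethanol array comes first and the ritonavir array second.

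During adipogenesis, growth-arrested preadipocytes re-enter the cell cycle for a few divisions, lose the actin stress fibres and matrix of fibroblasts, and come under the control of PPARγ and C/EBPα, which switch on genes for lipid storage, adipokines and hormone receptors. Contractile genes are driven by serum response factor (SRF) with coactivators that sense the state of actin, MAP kinase feedback genes by growth factor signalling through ERK, and many lysosomal genes by the MiT/TFE transcription factors. Ritonavir is known for metabolic side effects in patients and for impairing adipocyte differentiation and glucose transport in culture.

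The level used for detection was the median of the whole table, 6.55 on the log2 scale, reached on at least 1 of the 6 arrays. Any array value printed below 6.55 lies under that level, also where this is not repeated. The difference between the tenofovir and ethanol arrays had a robust SD (from the median absolute deviation) of 0.113, and 0 of 12386 genes were 2-fold apart, against a robust SD of 0.436 for ritonavir. The 3' control probe sets exceeded the 5' ones by 0.318 for actin on the ethanol array and by 0.193 on the ritonavir array, and by 2.43 and 1.99 for the transferrin receptor. The labelled cell type was borne out by its markers. All 8 named adipocyte markers were at or above the level on both arrays, with a median of 14.003 on the ethanol array and 9.43 on the ritonavir array. Preadipocyte and fibroblast markers, another cell state the dish can hold, had medians of 11.17 and 12.57 over 7 genes, with Cd34 under the level on both arrays. A median of levels can fall on a different gene on each array, so the gap between 2 such medians need not be the difference of any gene. In a wider list of such markers, 13 of 17 detected genes lay above 0 and 4 below, with a median difference of 0.54. In bulk RNA, fewer cells of a type and less RNA per cell cannot be told apart, and that holds for every result below.

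In total 565 genes (4.56% of those detected) were higher by 2-fold or more with ritonavir and 791 (6.39%) were lower, together 10.9%. The downward side reached much further. At least 4-fold differences numbered 77 higher and 283 lower, at least 8-fold 12 higher and 88 lower, and at least 16-fold 1 higher and 35 lower, while the median over all detected genes was 0.0018. Genes of low and high mean level both contributed. Among the 3097 genes with the lowest and the 3097 with the highest mean, 5.23% and 5.88% were lower and 3.81% and 3.55% higher. Of the genes that were higher, 480 lay at or above the level on both arrays, 4.25% of such genes, and 79 only on the ritonavir array. Of those that were lower, 635 lay at or above it on both, 5.63% of such genes, and 155 only on the ethanol array. If each value under the level is set to the level, called raised values below, 519 genes (4.19%) were higher and 732 (5.91%) lower.

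Other probe sets of the same genes mostly had the same direction. Another detected probe set existed for 255 of the higher genes, and 395 of these 418 probe sets (94.5%) had a difference above 0, 236 of them at least 2-fold. For 337 lower genes, 514 of 537 other probe sets (95.7%) lay below 0, 305 of them at least 2-fold. In both sets 0 were 2-fold apart in the opposite direction. Counted by probe set, 5.51% of 21521 detected ones with 1 symbol were higher and 5.6% lower, against 0 and 0.00465% for tenofovir. Of 2396 without a symbol 7.72% were higher and 3.63% lower, and of 619 with several symbols 5.49% and 3.88%. Values of different probe sets of a gene can differ in size, since probe sets differ in position and in how close they come to saturation.

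**Figure D1:**
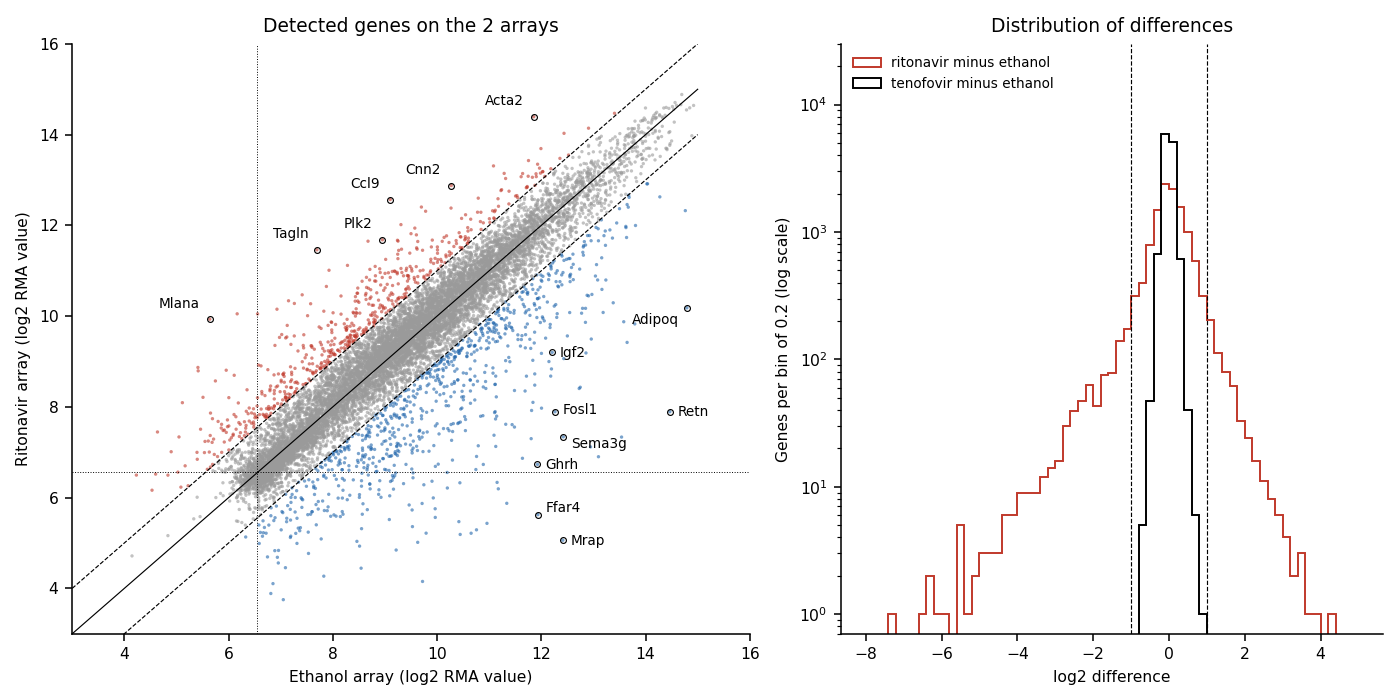
Left, log2 RMA value of each of 12386 detected genes on the ethanol array (x axis) and the ritonavir array (y axis), with the diagonal, dashed lines at 2-fold and dotted lines at the detection level of 6.55. Red points are the 565 genes at least 2-fold higher and blue points the 791 at least 2-fold lower. Circled genes are named in the text, except Retn, at 14.47 and 7.89. Right, number of genes (log scale) by log2 difference in bins of 0.2, for ritonavir minus ethanol and for tenofovir minus ethanol, both against the same ethanol array. The ritonavir differences spread from -7.35 to 4.29 and the tenofovir differences from -0.74 to 0.84.

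Genes were then read by 72 lists of related function. Of these, 45 had a median below 0, 12 had a median of -0.5 or less, and 4 had one of 0.5 or more. The lowest medians belonged to adipocyte identity, mitosis, lipid droplets and lipolysis, brown fat markers, and glycogen and pentose phosphate metabolism. The highest belonged to matrix proteases, chemokines, preadipocyte and fibroblast markers, and lysosomal genes. In 5 lists no member was 2-fold apart. Each list's counts below are to be read against the shares over all detected genes, 4.56% higher and 6.39% lower. Counts on the array of ritonavir with DMSO have their own shares over all detected genes, 1.52% higher and 2.99% lower.

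**Figure D2:**
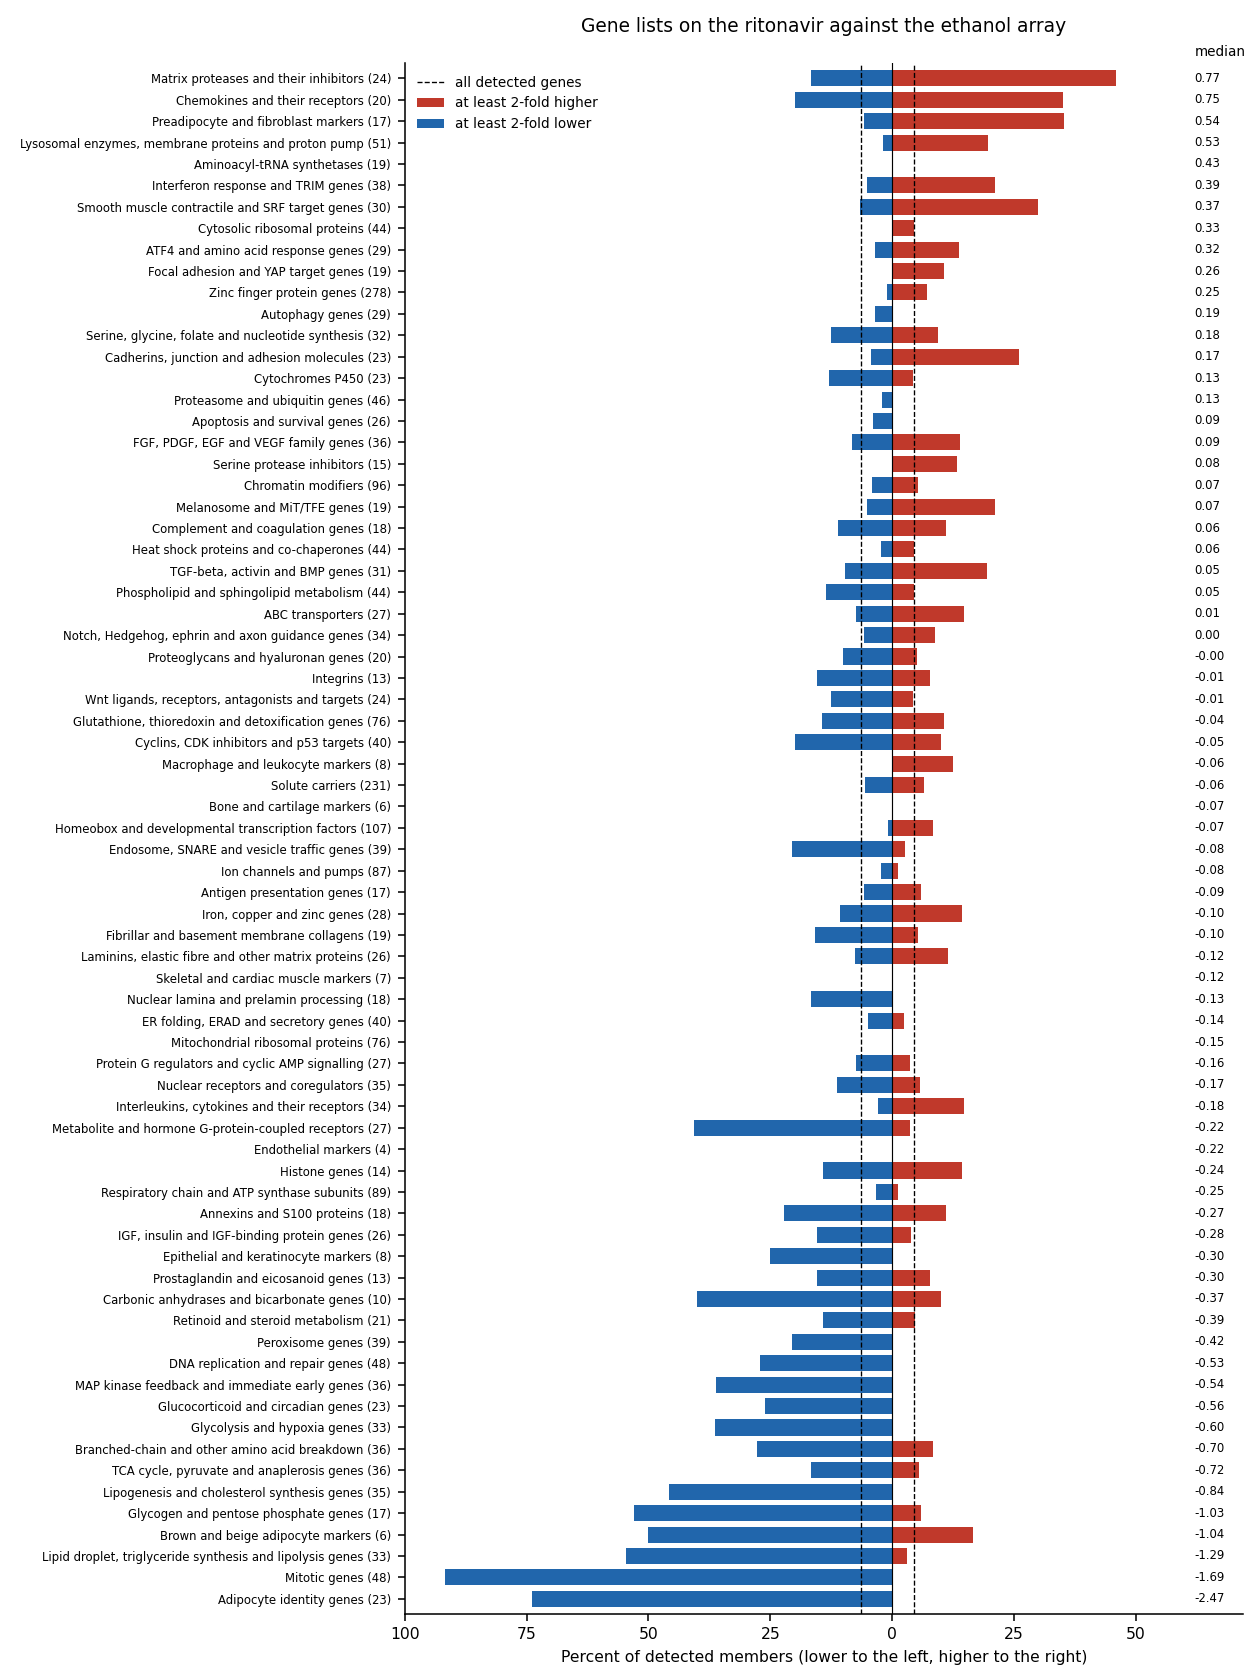
Percent of the detected members of each of 72 gene lists that were at least 2-fold higher (red, to the right) or lower (blue, to the left) on the ritonavir array than on the ethanol array, ordered by the median log2 difference printed at the right. The number of detected members follows each name, and dashed lines mark the shares over all detected genes, 4.56% higher and 6.39% lower. Mitotic genes reach 91.7% lower, and matrix proteases 45.8% higher.

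Contractile genes of smooth muscle and SRF targets held several of the largest upward differences. Of 30 detected members 9 were at least 2-fold higher and 2 lower (background 4.56% and 6.39% of all detected genes), and the median was 0.37 (0.22 with no detection filter) against 0.0018 for all genes. Tagln, the gene of transgelin, which binds actin filaments, stood at 7.70 on the ethanol array and 11.46 on the ritonavir array, a 13.6-fold difference. Actg2, a smooth muscle actin, read 6.56, close to the detection level, and 10.05. Myl9, a regulatory light chain of myosin, read 7.26 and 10.28. These 3 genes were within 0.17 of their ethanol value on the tenofovir array. Cnn2, the actin-bundling calponin, read 10.27 and 12.88 and Acta2, the smooth muscle actin of myofibroblasts, at 11.86 and 14.39. The other 4 higher members, named after their values were seen, were Tpm1 (2.11), Flna (1.49), Myh9 (1.17) and Fhl2 (1.06), for tropomyosin, filamin, nonmuscle myosin and a LIM protein. The heavy chain of differentiated smooth muscle, Myh11, did not follow. It was 7.81 on the ethanol array and 5.93 on the ritonavir array, under the level, and differed by -1.25 with raised values. Smtn, for the contractile protein smoothelin, read 9.28 and 7.75. On the array of ritonavir with DMSO 0 of the 30 genes were higher and 3 were lower than on the ethanol array (background 1.52% and 2.99%), with a median of -0.11. There Tagln differed from ethanol by 0.83, Actg2 by -0.12, Myl9 by -0.18, Cnn2 by 0.23 and Acta2 by 0.35.

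The bases before the start site of Myl9 and Cnn2 are printed because each holds a CArG box, the element bound by SRF, shown in capitals. They were read from RefSeq promoter windows of GRCm38.p6, as the 250 bases before the start, written 5′ to 3′ on the strand of the gene.
Myl9, chr2:156775214-156775463, plus strand: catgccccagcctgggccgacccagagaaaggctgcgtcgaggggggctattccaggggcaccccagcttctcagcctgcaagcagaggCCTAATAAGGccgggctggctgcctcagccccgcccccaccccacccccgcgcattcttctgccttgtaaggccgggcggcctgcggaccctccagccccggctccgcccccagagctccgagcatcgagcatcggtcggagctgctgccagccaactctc
Cnn2, chr10:79988350-79988599, plus strand: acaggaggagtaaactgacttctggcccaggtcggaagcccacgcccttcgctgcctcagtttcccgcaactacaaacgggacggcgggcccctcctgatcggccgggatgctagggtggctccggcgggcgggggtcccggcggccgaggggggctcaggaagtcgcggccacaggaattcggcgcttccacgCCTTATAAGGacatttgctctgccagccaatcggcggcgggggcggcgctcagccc
The match begins 161 bases before the start of Myl9 and 56 bases before that of Cnn2. A CArG box on either strand was present in 8 of the 32 windows of contractile genes (25%), and in 151 of 12741 windows of all detected genes (1.19%). These windows belong to 9975 of the 12386 genes, and a gene with several start sites has several windows. The list was made of known SRF targets, so this share describes the list and not the drug. Only 25 of the 30 contractile genes had a window. Tagln and Actg2, with the largest upward differences of the list, and the lower Myh11 had none. Among those with a window, the 7 genes with a match had a median difference of 0.39, 3 of them at least 2-fold higher. The 18 without a match had a median of 0.21, 4 of them higher and 1 lower. A match is a run of letters and does not show binding.

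Focal adhesion and YAP target genes had 2 higher and 0 lower of 19. These were Ccn1, a matricellular YAP target, at 9.60 and 11.09, and the LIM protein Ajuba, at 8.42 and 9.67. With DMSO, Ccn1 differed from ethanol by -0.79 and Ajuba by 1.03.

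Among adhesion molecules 6 of 23 were higher and 1 lower. Gja1, the gap junction protein connexin of fibroblasts, read 8.16 and 10.44, with its 5 detected probe sets between 1.35 and 2.43. Vcam1, which binds leukocyte integrins, read 9.25 and 11.36, Ncam1 at 9.14 and 10.98 and the mesenchymal cadherin Cdh11 at 11.24 and 12.79. The tight junction gene Cldn15 went the other way, at 12.17 and 9.75. Integrins had 1 higher and 2 lower of 13. The laminin receptor subunits Itga6 (12.77 and 10.07) and Itga7 (8.97 and 6.86) were lower, and Itgb2, a subunit of leukocyte integrins, read 6.64, close to the detection level, and 8.29.

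Enzymes that cut the matrix, and their inhibitors, had a high median, as did chemokines. Of 24 proteases and inhibitors 11 were at least 2-fold higher and 4 lower, and the median was 0.77. With raised values, 9 were higher and the median was 0.62. Plat, the tissue plasminogen activator, read 7.10 and 9.52 and the aggrecan-cleaving Adamts5 at 10.14 and 11.73. The metalloproteinase inhibitors diverged, with Timp2 at 11.29 and 13.15 and Timp4, an inhibitor abundant in adipose tissue, at 10.42 and 7.65. Reck, a membrane-anchored inhibitor, read 7.60 and 9.08. Metalloproteinase genes named after their values were seen were Mmp3 (1.57), Mmp11 (1.39), Mmp2 (1.24), Mmp14 (1.23), Mmp13 (1.15) and Mmp23 (1.09). Not all of these metalloproteinase genes stayed 2-fold higher with raised values. Lower members were the ADAM type metalloproteinases Adamts9 (10.64 and 8.84), Adamts12 (11.38 and 9.78) and Adam12 (10.35 and 9.21). With DMSO the list had 2 higher and 4 lower and a median of -0.19, and Plat differed by 0.04 there while Timp4 differed by -2.52.

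Structural matrix genes had medians near 0 with large single members. Collagens had 1 higher and 3 lower of 19. Col12a1, a fibril-associated collagen, read 7.13 and 8.20, while the basement membrane collagens Col15a1 (9.67 and 7.48) and Col18a1 (11.16 and 9.45) and the fibrillar Col5a3 (11.71 and 10.11) were lower. Among 26 laminins, elastic fibre and other matrix genes 3 were higher and 2 lower. Fbln7, a fibulin, was 6.17 on the ethanol array, under the level, and 10.05 on the ritonavir array. Fbln1 read 7.98 and 9.70, although another of its 3 probe sets differed by -0.09, and the calcification inhibitor Mgp at 11.64 and 13.14. Emilin2 (9.08 and 6.60) and the laminin chain Lamb3 (8.20 and 5.63) were lower. Small leucine-rich proteoglycans diverged, with Ogn at 9.63 and 11.65, Prelp at 12.003 and 9.18 and Aspn at 11.23 and 9.95. Aebp1, a collagen-binding secreted protein that is high in preadipocytes, read 8.28 and 11.12.

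The activin subunit genes differed in opposite directions. Inhbb, the activin B subunit made by fat cells, was 10.76 on the ethanol array and 5.29 on the ritonavir array, where it lay under the detection level. Its other detected probe set differed by -0.82, under 2-fold. Inhba, the activin A subunit of preadipocytes, read 7.74 and 9.76. Of 31 genes in the list 6 were higher and 3 lower, and the list median was 0.05. Grem1, an antagonist of BMP, read 7.02 and 9.59, and the BMP-responsive inhibitors of differentiation Id2 (6.89 and 9.35) and Id3 (9.60 and 11.79) were higher, whereas Id4 (10.04 and 8.82) and the ligand Gdf5 (8.18 and 5.69) were lower. With DMSO, Inhbb differed from ethanol by -3.54, Inhba by 0.69, Grem1 by 0.14, Id2 by 1.49 and Id3 by 1.06.

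Wnt genes had 1 higher and 3 lower of 24 (4.17% and 12.5%). Ccn4, a matricellular Wnt target, read 7.98 and 9.86. The inhibitor Apcdd1 (11.12 and 9.44), the receptor Fzd4 (10.20 and 9.002) and the transcription factor Lef1 (9.54 and 8.35) were lower. Growth factors of the FGF, PDGF, EGF and VEGF families had 5 higher and 3 lower of 36. The angiopoietin Angpt4 read 7.58 and 10.27, the co-receptor Nrp2 at 8.83 and 10.77 and the PDGF receptor Pdgfrb, a marker of mesenchymal progenitors, at 11.17 and 12.59. The adipokines Nrg4 (8.55 and 5.32, under the level) and Angptl4 (12.30 and 10.05) and the receptor Met (10.85 and 9.66) were lower. Sema3g, a semaphorin, had one of the largest downward differences outside the lipid genes, at 12.42 and 7.34, a 33.9-fold difference. Genes of Notch, Hedgehog, ephrin and guidance pathways had 3 higher and 2 lower of 34. The higher ones included Unc5b at 8.48 and 10.51, Efnb2 at 7.47 and 9.08 and Sema3a at 8.47 and 9.56.

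Feedback and immediate early genes of MAP kinase signalling were lower without exception among those 2-fold apart. Of 36 detected members 13 were lower by 2-fold or more, 0 were higher, and the median was -0.54. Fosl1, the AP-1 subunit FRA1 that accumulates when ERK is active, was 12.26 on the ethanol array, 12.11 on the tenofovir array and 7.89 on the ritonavir array, a 20.7-fold difference seen in both of its probe sets (-4.37 and -3.80). Spry4, an inhibitor of receptor tyrosine kinase signalling, read 9.73 and 7.01, and Dusp6, the phosphatase of ERK, at 10.72 and 8.15. Maff, a small MAF transcription factor, read 9.71 and 7.33. The member with the highest difference was Klf4 at 0.58, under 2-fold. With DMSO 15 of the 36 were lower and 0 higher (background 2.99% and 1.52%), with a median of -0.78. This list, unlike the contractile one, was thus at least as low there. Fosl1 differed from ethanol by -2.66, Spry4 by -1.26, Dusp6 by -1.81, Maff by -1.60 and Dusp1, another phosphatase of MAP kinases, by -1.87, more than with ritonavir alone.

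Receptors for metabolites and hormones, which let fat cells sense lactate, ketone bodies, fatty acids and melanocortins, had 11 lower and 1 higher of 27. The median was -0.22, and 20 of the 27 lay below 0. It depended on the processing, at -0.74 with the mean of a gene's probe sets, -0.70 without cross-hybridising suffixes, -1.43 with the stricter detection level of 8.77 and -0.38 against tenofovir. Mrap was 12.41 on the ethanol array and 5.06 on the ritonavir array. It is the accessory protein that carries the ACTH receptor to the membrane, and is counted in the list though not itself a receptor. Ffar4, a receptor for long-chain fatty acids, read 11.94 and 5.63. The lactate receptor Hcar1 read 9.63 and 5.02 and the hydroxybutyrate and niacin receptor Hcar2 at 10.96 and 5.43. All 4 lay under the detection level with ritonavir, and their raised differences were -5.86, -5.38, -3.07 and -4.40. The lysophosphatidic acid receptor Lpar1 was the exception, at 8.43 and 9.57. With DMSO, Ffar4 stayed far from ethanol at -5.45, whereas Mrap differed by -1.86, Hcar1 by -2.23 and Hcar2 by -2.46. The cyclic AMP phosphodiesterases Pde3b (12.43 and 9.06), which mediates the antilipolytic action of insulin, and Pde4b (8.59 and 6.77) were lower, and the G protein regulator Rgs16 (8.27 and 9.72) was higher, among 27 genes of that group.

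Some of the 25 most lowered genes belong to no lipid list. Ghrh, the growth hormone-releasing hormone, was 11.93, 11.57 and 6.73 on the ethanol, tenofovir and ritonavir arrays. Vsir, the immune checkpoint protein VISTA, read 11.81 and 7.30, with its probe sets at -4.51 and -2.37. Hp, which encodes haptoglobin, read 11.64 and 6.87 and Fcor, a corepressor of FOXO1, at 10.75 and 6.62. Ang3 (11.18 and 6.19) and Ear3 (12.75 and 8.43), ribonucleases of clustered families with near-identical copies, were also lower, and which copy their probes measured is uncertain. The sulfotransferase gene Sult1a1 (11.13 and 7.13) and Noct, a circadian gene of fat and liver (12.005 and 7.97), were lower as well. The IGF and insulin list had 1 higher and 4 lower of 26 (3.85% and 15.4%, against 4.56% and 6.39% of all detected genes), with a median of -0.28. The growth factor Igf2 read 12.21 and 9.20 and the insulin receptor substrate Irs2 at 10.64 and 8.35, while the insulin receptor inhibitor Grb14 read 8.98 and 10.57.

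Chemokine genes lay on both sides. Of 20 detected members 7 were higher and 4 lower, at a median of 0.75. For raised values these were 6 and 3, at a median of 0.41, and with no detection filter the median was 0.11. Ccl9, a chemoattractant of myeloid cells, stood at 9.10 on the ethanol array, 9.33 on the tenofovir array and 12.57 on the ritonavir array. The neutrophil chemokine Cxcl5 read 7.52 and 10.01 and the monocyte chemokine Ccl7 at 8.65 and 10.63. Cxcl13, which attracts B cells, read 9.40 and 7.18, and the interferon-induced Cxcl10 (8.14 and 6.75) and Cx3cl1 (8.65 and 7.36) were lower. With DMSO, Cxcl5 differed from ethanol by 0.29 and Ccl7 by -0.01, while Ccl9 differed by 1.90 and its neighbour Ccl6 by 2.26, against 1.86 with ritonavir alone. Of 34 interleukin and cytokine genes 5 were higher and 1 lower. Il6 read 5.42, under the level, and 8.79, its signalling receptor Il6st at 10.55 and 12.23 and its ligand-binding receptor Il6ra at 8.31 and 7.06. Csf1, the growth factor of macrophages, read 9.78 and 12.31, and Socs2, a feedback inhibitor of cytokine receptors, at 10.78 and 12.29.

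Interferon response genes had 8 higher and 2 lower of 38 and a median of 0.39. Trim30d (7.15 and 10.34) belongs to a family of close copies, so its share of the signal is uncertain. Bst2, the tethering protein that holds virions at the cell surface, read 9.50 and 11.82 and Ifit2 at 7.19 and 8.88. Oasl2 read 6.56, close to the detection level, and 8.20. The nuclease Isg20 (10.19 and 8.46) and the GTPase Iigp1 (10.57 and 9.12) were lower. With DMSO the list had 7 higher and 1 lower (background 1.52% and 2.99%), at a median of 0.31. Antigen presentation genes had 1 higher, Cd74 (7.80 and 8.88), and 1 lower, the lipid-presenting Cd1d1 (10.47 and 8.22), of 17. Macrophage markers were sparse. Ptprc, Adgre1, Itgam, Aif1 and Tyrobp were under the level on both arrays, 5 of 10 named markers reached it on the ethanol array and 4 on the ritonavir array, and the median over the 10 was 6.42 and 6.15.

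**Figure D3:**
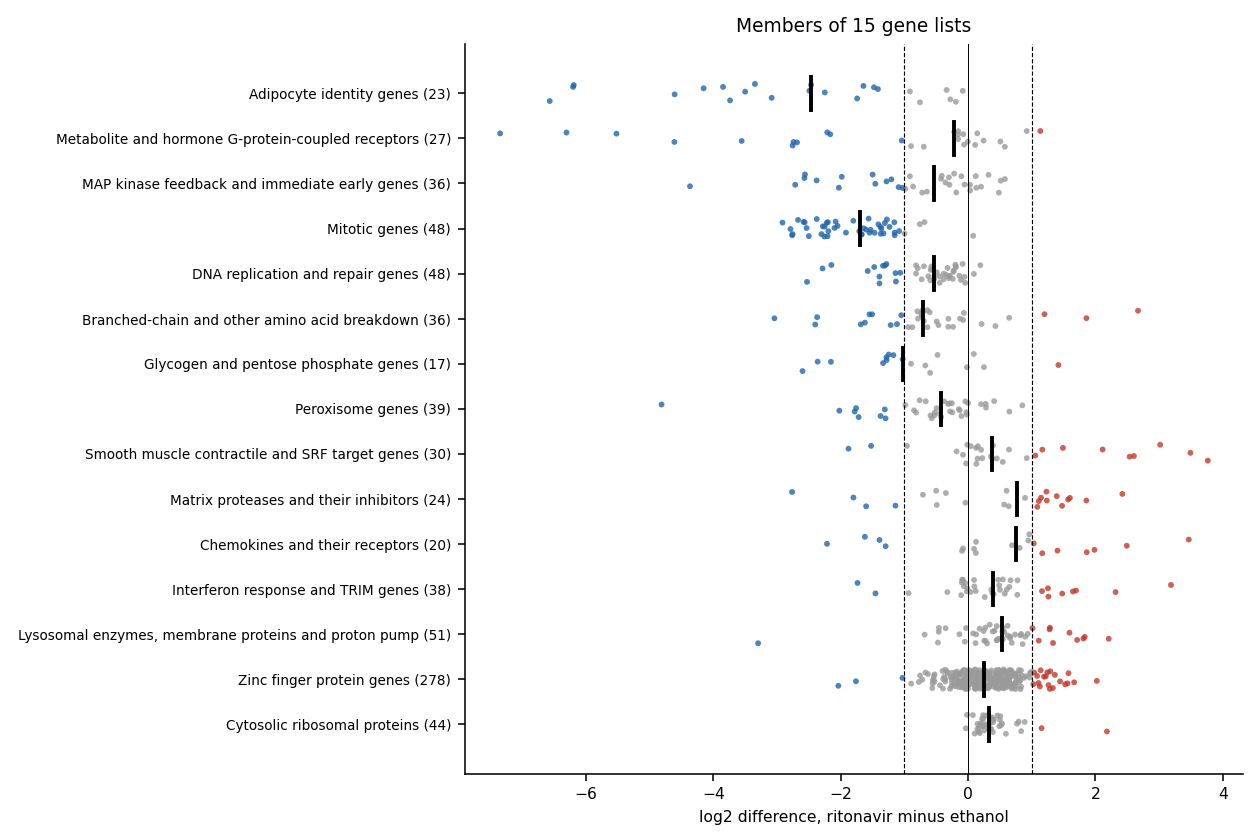
Log2 difference, ritonavir minus ethanol, of every detected member of 15 gene lists. Each point is 1 gene (red at least 2-fold higher, blue at least 2-fold lower, grey in between), black bars are medians, dashed lines mark 2-fold, and the vertical scatter of points has no meaning. Mitotic genes lie between -2.92 and 0.08. The list of G-protein-coupled receptors splits into a group near 0 and a tail that reaches -7.35, the value of the accessory protein Mrap.

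Lysosomal genes were shifted upward together by a small amount. Of 51 detected genes 42 lay above 0, 10 were at least 2-fold higher and 1 lower, with a median of 0.53. Ctsk, the collagen-degrading cathepsin K, read 8.65 and 10.86, and Cd68, a lysosomal membrane protein also used as a macrophage marker, at 6.87 and 8.71. Gla, the alpha-galactosidase that clears globotriaosylceramide, read 9.18 and 10.995 and Npc1, the exporter of cholesterol from lysosomes, at 8.45 and 10.16. Ctsc, a cathepsin that activates granule proteases, was the 1 lower member at -3.30, and no longer 2-fold lower with raised values. With DMSO 6 were higher and 1 lower, at a median of 0.46. The chloride transporter of lysosomes, Clcn7 (9.27 and 10.41), Nceh1, which hydrolyses cholesteryl ether and ester lipids (6.93 and 10.15), and the sphingosine phosphate lyase Sgpl1 (9.06 and 10.40) were also higher.

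The windows of Gla and Ctsl are shown because they hold the palindrome CACGTG, the core of the element bound by MiT/TFE factors, in capitals. They are the 250 bases before the RefSeq start on GRCm38.p6, and Ctsl, for cathepsin L (12.44 and 14.03), was chosen after its value was seen.
Gla, chrX:134601006-134601255, minus strand: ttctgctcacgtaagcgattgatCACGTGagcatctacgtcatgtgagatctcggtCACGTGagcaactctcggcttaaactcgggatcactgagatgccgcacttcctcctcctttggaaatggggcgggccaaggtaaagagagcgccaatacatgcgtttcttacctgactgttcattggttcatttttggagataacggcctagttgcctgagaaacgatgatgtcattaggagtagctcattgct
Ctsl, chr13:64370521-64370770, minus strand: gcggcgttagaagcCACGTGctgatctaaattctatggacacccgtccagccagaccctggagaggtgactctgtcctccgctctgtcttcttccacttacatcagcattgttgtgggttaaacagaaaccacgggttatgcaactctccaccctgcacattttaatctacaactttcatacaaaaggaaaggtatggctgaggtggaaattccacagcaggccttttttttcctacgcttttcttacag
CACGTG, which reads the same on both strands, was found in 12 of 47 windows of lysosomal genes (25.5%) and in 1041 of 12741 windows of all detected genes (8.17%). The share in this list counts its members whatever their difference, so it describes the list and not the drug. The 12 lysosomal genes with a match had a median difference of 0.71, and 5 were at least 2-fold higher. The 32 without had a median of 0.43, with 4 higher and 1 lower. Among genes at least 2-fold higher in general, 8.75% of windows held the motif, and among those 2-fold lower 7.22%, both near the share of all windows.

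Melanosomes are related to lysosomes, and 2 of their genes had very large differences. Mlana, a melanosomal membrane protein and MiT/TFE target, was 5.64 on the ethanol array, 5.40 on the tenofovir array, 9.93 on the ritonavir array and, as a difference from ethanol with DMSO, 4.43 higher. Mreg, the melanoregulin gene, read 5.41 and 8.87 and differed by 3.77 with DMSO. Both lay under the level without ritonavir. Myo5a, the myosin that carries melanosomes (9.84 and 10.90), and Flcn, a regulator of TFE factors (10.44 and 11.51), were higher by less. The pigment enzymes Tyr, Tyrp1 and Dct were under the level on both arrays. The melanosome list as a whole had 4 higher and 1 lower of 19 and a median of 0.07.

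Autophagy genes had 0 higher and 1 lower of 29 and a median of 0.19. The 1 was the mitophagy receptor Bnip3, at 14.27 and 12.63. Vesicle traffic genes had 1 higher and 8 lower of 39. The lower ones included parts of caveolae and of the storage compartment of the glucose transporter. Cavin2 read 12.79 and 10.17, with 3 probe sets between -3.02 and -2.62. Sort1, the sortilin that sorts this transporter, read 11.70 and 9.59, and Rab3d at 9.52 and 7.66. Cavin1 differed by -1.67 on the probe set used, but another of its 3 probe sets differed by 0.22, so its direction depends on the probe set. The syntaxin Stx3 was the 1 higher member, at 7.76 and 9.42.

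Mitotic genes were lower almost throughout. Of 48 detected members 44 (91.7%) were at least 2-fold lower and 0 higher, against 6.39% lower over all detected genes, and the median was -1.69. Cdca3, which triggers mitotic entry, read 11.14 and 8.22, and Mki67, the proliferation marker Ki-67, at 10.40 and 7.63. The microtubule depolymerase Kif2c read 9.94 and 7.15 and Cenpa, the histone variant of centromeres, at 10.23 and 7.47. Another of the 3 detected probe sets of Kif2c differed by only -0.08, so its size depends on the probe set. The member with the highest difference was Smc4 at 0.08. On the tenofovir array the median of this list was -0.11 from ethanol, and Kif2c differed by -0.53. With DMSO 23 of 48 were lower and 0 higher, with a median of -0.99, and Cdca3 differed by -1.54, Mki67 by -1.47 and Cenpa by -1.58.

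DNA replication and repair genes were lower by less. Of 48 detected, 46 lay below 0 and 13 were at least 2-fold lower, with a median of -0.53. The thymidine kinase Tk1 read 10.94 and 8.41, the histone chaperone Asf1b at 11.38 and 9.09, Brca1 at 10.17 and 8.03 and the origin licensing factor Cdc6 at 8.74 and 7.16. Another of the 3 detected probe sets of Brca1 differed by only -0.07. With DMSO the median was the same to 2 decimals, -0.53, with 5 lower. Cell cycle regulators diverged. Of 40 genes 4 were higher and 8 lower. The cyclin D1 gene Ccnd1 read 8.91 and 10.96, the kinase Plk2 at 8.95 and 11.68, the stress gene Gadd45a at 10.79 and 12.60 and the inhibitor Cdkn2b at 10.59 and 11.95. The inhibitor Cdkn2c, which rises in adipogenesis, read 12.50 and 9.56, and Ccne2 (8.66 and 6.61) and the repressors E2f7 (8.72 and 6.19) and E2f8 (8.03 and 6.49) were lower. Apoptosis genes had 1 of 26 apart, Gsdme at -1.38, but its other probe set differed by 0.22, so its direction depends on the probe set.

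The windows of Kif2c and Mki67 are shown for the hexamer TTTGAA, core of the cell cycle homology region, and for CCAAT, bound by NF-Y. Capitals mark the matches on either strand, as TTTGAA or TTCAAA and as CCAAT or ATTGG, in the 250 bases before the RefSeq start on GRCm38.p6.
Kif2c, chr4:117178773-117179022, minus strand: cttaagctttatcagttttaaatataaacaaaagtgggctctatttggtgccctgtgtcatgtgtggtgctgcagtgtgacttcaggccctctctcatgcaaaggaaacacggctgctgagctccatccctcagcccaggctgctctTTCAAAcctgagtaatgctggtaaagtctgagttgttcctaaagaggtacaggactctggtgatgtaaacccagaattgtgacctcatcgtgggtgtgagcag
Mki67, chr7:135716380-135716629, minus strand: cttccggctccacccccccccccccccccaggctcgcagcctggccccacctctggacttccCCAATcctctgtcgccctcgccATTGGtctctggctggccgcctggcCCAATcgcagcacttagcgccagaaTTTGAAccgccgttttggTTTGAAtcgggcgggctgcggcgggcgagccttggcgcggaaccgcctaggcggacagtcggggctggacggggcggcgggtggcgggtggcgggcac
The window of Kif2c held 1 hexamer, 103 bases before the start, and 0 matches to CCAAT. That of Mki67 held 2 hexamers, the farther 116 bases before the start, and 3 matches to CCAAT. The hexamer TTTGAA was in 17 of 43 windows of mitotic genes (39.5%) against 10.4% of all windows, and CCAAT in 33 of 43 (76.7%) against 35% of all windows. Both shares count the members whatever their difference, so they too describe the list and not the drug. The 16 mitotic genes with TTTGAA had a median of -1.69 and the 25 without one of -1.80, and those with CCAAT had -1.80 (31 genes) against -1.54 (10 genes). In all 8 motifs were searched on both strands. TTTGAA was in 12.9% of windows of genes at least 2-fold higher, in 10.3% of those lower and in 10.4% of all. CCAAT was in 34.6%, 41% and 35%, and the CArG box in 3.04%, 1.84% and 1.19%. The AP-1 site TGACTCA was in 4.64% of windows of genes at least 2-fold higher, in 5.26% of those lower and in 3.45% of all. TGACGTCA was in 1.79%, 1.59% and 2.43%, TATAAA in 11.3%, 7.96% and 6.82%, and AGGTCA in 11.3%, 13% and 11.2%. No searched motif contains another, except that a CArG box can contain TATAAA or CCAAT.

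**Figure D4:**
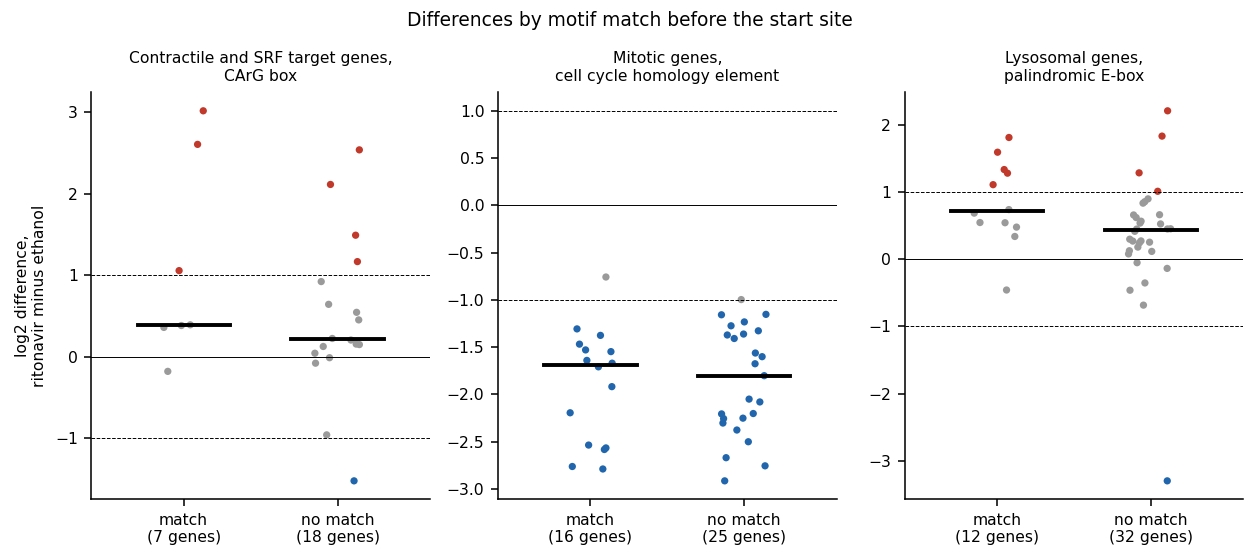
Log2 difference, ritonavir minus ethanol, of contractile, mitotic and lysosomal genes, split by whether the 250 bases before a RefSeq start hold the named motif on either strand. Points are genes (red at least 2-fold higher, blue at least 2-fold lower, grey in between), bars are medians, and the y axes differ between panels. Medians with and without a match are 0.39 and 0.21, -1.69 and -1.80, and 0.71 and 0.43. Only detected genes with a promoter window are shown, 25 of 30, 41 of 48 and 44 of 51, so Tagln, Actg2 and Myh11 are left out.

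Metabolic genes were lower well beyond the lipid storage genes. The adipocyte identity list had 17 of 23 lower and 0 higher, with a median of -2.47, and with DMSO 10 lower and a median of -0.93. Within it Adipoq read 14.79 and 10.18 but differed by only -0.16 with DMSO, while Klf15 (10.89 and 6.73) differed by -1.75. The lipid droplet and lipolysis list had 18 lower and 1 higher of 33, the 1 being the monoacylglycerol lipase Abhd6 (10.01 and 11.39), which was 1.505 higher with DMSO too. Glycogen and pentose phosphate genes had 9 of 17 lower and 1 higher, with a median of -1.03. The subunits that bring phosphatase to glycogen, Ppp1r3d (10.12 and 7.52) and Ppp1r3b (9.81 and 7.45), the branching enzyme Gbe1 (10.91 and 8.76) and the synthase Gys1 (12.14 and 10.81) were lower. The primer of glycogen, Gyg, went up at 11.93 and 13.35 and was 1.31 higher with DMSO.

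Breakdown of branched-chain and other amino acids had 10 lower and 3 higher of 36, with a median of -0.70. The mitochondrial enzymes Dbt (10.93 and 8.56) and Aldh6a1 (12.55 and 10.86), the alanine transaminase Gpt (10.84 and 7.79) and the glutamine synthetase Glul (11.40 and 8.996) were lower. The first step showed opposite differences for its 2 transaminases. The cytosolic Bcat1 read 7.13 and 9.80, while the mitochondrial Bcat2, named after its value was seen, differed by -1.55. Got1, the cytosolic aspartate transaminase (9.62 and 11.48), and Cdo1, which oxidises cysteine (11.10 and 12.30), were also higher. Genes around the TCA cycle and pyruvate had 6 lower and 2 higher of 36, and 32 of them lay below 0, with a median of -0.72. Pcx, the pyruvate carboxylase, read 13.64 and 11.73, the dicarboxylate carrier Slc25a10 at 13.08 and 10.80 and Mdh1 at 14.03 and 12.91. Pck1, which makes glycerol phosphate for lipid storage in fat cells, read 9.72 and 4.15, under the level.

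Respiratory chain genes had 1 higher and 3 lower of 89, but 76 lay below 0, with a median of -0.25. The isoforms of muscle and brown fat were farthest apart. Cox7a1 (9.97 and 5.56) and Cox8b (8.68 and 6.50) were lower, while Cox6a2 (8.39 and 10.08) was higher and differed by 1.62 with DMSO. Mitochondrial ribosomal proteins had 0 of 76 apart and a median of -0.15. Peroxisome genes had 8 lower and 0 higher of 39, with a median of -0.42. Abcd2, the importer of very long fatty acids, read 11.15 and 6.34, Gnpat, the first enzyme of plasmalogen synthesis, at 12.28 and 10.26 and the biogenesis factor Pex16 at 11.97 and 10.19. Ppargc1a, the coactivator of mitochondrial biogenesis, went the opposite way, at 8.47 and 10.50, with all 5 of its probe sets at least 2-fold higher, and was 1.79 higher with DMSO.

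Glycolysis and hypoxia genes had 12 lower and 0 higher of 33, with a median of -0.60, and with DMSO 9 lower and a median of -0.62. Targets of hypoxia-inducible factor led them, with Car9 at 9.71 and 5.87, Egln3 at 12.86 and 9.19, Ankrd37 at 11.12 and 7.73 and Ndrg1 at 10.48 and 7.97. Hif1a itself, regulated mainly at the protein level, differed by 0.15. Carbonic anhydrases had 4 lower and 1 higher of 10. Car3, abundant in fat, read 13.10 and 6.90 and Car2 at 9.16 and 6.19, whereas the secreted Car6 read 7.88 and 10.65 and was 2.15 higher with DMSO. Lipogenesis and cholesterol synthesis had 16 lower and 0 higher of 35. Pmvk, a kinase of the mevalonate pathway, read 10.63 and 8.60 and the SREBP regulator Insig1 at 12.36 and 10.76, and with DMSO they differed by -0.61 and 0.06.

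Phospholipid and sphingolipid genes had 6 lower and 2 higher of 44. The secreted phospholipase Pla2g2e (10.28 and 7.26), the phosphatidate phosphatase Lpin1 (11.84 and 9.03), the methyltransferase Pemt (10.64 and 8.08) and the ceramide synthase Cers4 (11.98 and 9.86) were lower. Pla2g4a, which releases arachidonate for prostaglandins, read 9.10 and 10.85, and Ptgs2, the inducible cyclooxygenase, at 5.69, under the level, and 7.74. Ltc4s, the leukotriene synthase, read 11.87 and 8.73. In steroid metabolism, Hsd11b1, which activates glucocorticoid in fat, read 13.79 and 9.83, and Cyp7b1, an oxysterol hydroxylase, at 7.41 and 10.47, with its probe sets at 3.06 and 3.25. Glucocorticoid and circadian genes had 6 lower and 0 higher of 23, with a median of -0.56 and -0.62 with DMSO. Averaged over a gene's probe sets, the first was -0.28. Among them were Bhlhe40 (12.33 and 10.65), Rora (9.15 and 7.53) and Zbtb16 (8.93 and 7.46), and Fkbp5, a classical glucocorticoid target, was the highest at 0.69.

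Detoxification genes had 8 higher and 11 lower of 76. The epoxide hydrolase Ephx2 read 9.24 and 11.67 and was 2.63 higher with DMSO. The aldehyde dehydrogenase Aldh1a7 (12.85 and 10.17), the carbonyl reductase Cbr3 (13.16 and 10.59) and Gstz1, of tyrosine breakdown (11.86 and 9.41), were lower. Cytochromes P450 had 1 higher and 3 lower of 23. Among ABC transporters 4 were higher and 2 lower of 27. The efflux pump Abcc4, which exports nucleotides and several antiviral drugs, read 8.71 and 11.03 and differed by 2.56 with DMSO, while the sterol exporter Abcg1 read 8.63 and 6.95. Solute carriers had 15 higher and 13 lower of 231, shares of 6.49% and 5.63% that are near the 4.56% and 6.39% of all detected genes. The mitochondrial iron importer Slc25a37 (7.26 and 9.56), the carrier Slc25a30 (8.01 and 10.07), the amino acid transporter Slc38a4 (7.06 and 8.75) and the phosphate transporter Slc20a1 (9.33 and 10.96) were higher. The glucose transporter Slc2a4 (11.84 and 8.10), the sulfate transporter Slc13a4 (9.97 and 6.69), the proton-coupled Slc36a2 (9.11 and 6.36) and the glutamate transporter Slc1a3 (10.89 and 8.44) were lower. Ion channels had 1 higher and 2 lower of 87 (1.15% and 2.30%), Kcnk3 being lowest (10.30 and 7.46).

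Metalloreductases of the STEAP family, which reduce iron and copper for uptake, had opposite differences. Steap4, the member of fat tissue, was 10.44 on the ethanol array and 5.19 on the ritonavir array, under the level. Its other detected probe set differed by -0.54. Steap1 read 8.82 and 10.89 and Steap2 at 8.50 and 10.30, with 4 probe sets between 1.36 and 2.49. The iron exporter Slc40a1 read 8.46 and 9.61, and Lcn2, which binds iron-carrying siderophores, at 13.65 and 9.42. The whole list of iron, copper and zinc genes had 4 higher and 3 lower of 28.

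Ribosomal protein and tRNA synthetase genes had small differences, mostly above 0. Cytosolic ribosomal proteins lay above 0 for 42 of 44 members and had a median of 0.33, or 0.59 without cross-hybridising suffixes, although only Rpl12 (7.20 and 9.38) and Rpl14 (7.61 and 8.77) were 2-fold higher, and each has 1 detected named probe set and many pseudogene copies. Aminoacyl-tRNA synthetases had 18 of 19 above 0 and a median of 0.43, from Mars1 at -0.17 to Lars at 0.82, with 0 of them 2-fold apart. Amino acid response genes had 4 higher and 1 lower of 29. Ddit3, which encodes CHOP, read 11.99 and 13.69 and Atf3 at 8.60 and 9.70, and Atf3 was 1.83 higher with DMSO. Folding and secretory genes lay mostly below 0, 24 of 40, with a median of -0.14. They had 1 higher and 2 lower, the lower being Xbp1 (13.81 and 11.998) and its target Dnajb9 (12.01 and 10.77). Proteasome and ubiquitin genes had 0 higher and 1 lower of 46, Psma1 (13.23 and 11.88). Heat shock proteins and co-chaperones had 2 higher and 1 lower of 44. The 2 higher were the small heat shock proteins Cryab (9.25 and 11.65) and Hspb6 (9.72 and 11.45).

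Homeobox and developmental transcription factors had 9 higher (8.41%) and 1 lower (0.935%) of 107, against 4.56% and 6.39% of all detected genes. Below 2-fold they leaned the other way, with 42 of the 107 above 0, 65 below it and a median of -0.07. Foxp1, a forkhead repressor, read 8.16 and 10.04, with 6 probe sets between 1.00 and 2.36. Snai2, the Slug repressor of mesenchymal cells, read 10.47 and 12.15, Runx1t1, an inhibitor of adipogenesis, at 8.46 and 10.06 and Hoxc13 at 6.64 and 8.34. Foxf2 read 9.20 and 7.01. With DMSO 1 was higher and 3 lower, against 1.52% and 2.99% of all detected genes. Zinc finger protein genes had 20 higher (7.19%) and 3 lower (1.08%) of 278, 200 of them lay above 0, and the median was 0.25, against 2 higher and 3 lower and a median of 0.10 with DMSO. Zfp365 (6.36 and 8.38), Zfp945 (7.05 and 8.71), Zfp930 (7.01 and 8.59) and Zfp469 (6.79 and 8.36) had the largest upward differences. Zfp365 lay under the level on the ethanol array, and its other detected probe set differed by 0.61. Zfp703 (12.02 and 9.98) and Zfp467, a promoter of adipogenesis (9.26 and 7.50), were lower, although another probe set of Zfp703 differed by 0.05.

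Chromatin genes had 5 higher and 4 lower of 96. The architectural protein Hmga2 read 8.95 and 10.85, with 3 probe sets between 1.90 and 2.33, and Hmgb3 at 9.97 and 7.58. Nuclear receptors had 2 higher and 4 lower of 35. Nr1h3, the oxysterol receptor LXRα, read 9.85 and 7.02 and the vitamin D receptor Vdr at 7.28 and 8.85. Nuclear lamina and prelamin processing genes, of interest because HIV protease inhibitors can block prelamin cleavage, had 0 higher and 3 lower of 18 and a median of -0.13. The named ones were Tmpo (9.81 and 8.76) and Nrm (9.002 and 7.98). Histone genes had 2 higher and 2 lower of 14. The calcium-binding S100 proteins and annexins had 2 higher and 4 lower of 18, with Anxa3 at 7.93 and 11.01, the fibroblast marker S100a4 at 11.90 and 13.07, Anxa8 at 11.69 and 8.35 and S100a1 at 12.85 and 9.86.

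Markers of preadipocytes and fibroblasts had 6 higher and 1 lower of 17, with a median of 0.54, which was 0.14 with no detection filter and 0.89 with the stricter level. Thy1, a surface marker of fibroblasts, read 8.71 and 10.39 and Osr1, a factor of mesenchymal progenitors, at 8.40 and 10.07. The matricellular Ccn5 read 8.19 and 9.44, and Dpt, for dermatopontin, at 9.005 and 7.93. With DMSO 0 were higher and 3 lower, at a median of -0.34, and Thy1 differed by -0.45 and Osr1 by -0.52. Defining markers of other lineages were read the same way. At or above the level on the ethanol array were 1 of 6 endothelial, 1 of 6 muscle, 2 of 4 bone and cartilage and 4 of 6 epithelial markers, and on the ritonavir array 1, 1, 1 and 2. The highest epithelial marker read 10.25 on the ethanol array. Under the level on both arrays were Pecam1, Cdh5, Tek, Tie1 and Emcn of endothelium, Myod1, Myog, Tnnt2, Tnnt3 and Actc1 of muscle, Ibsp and Col2a1 of bone and cartilage, and Cdh1 and Krt14 of epithelium. The medians over each whole marker list were 5.03 and 4.95, 6.08 and 5.97, 6.46 and 6.30, and 7.05 and 6.01 on the ethanol and ritonavir arrays. Krt19, an epithelial keratin, read 8.51 and 6.07.

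Some of the genes apart lie side by side on a chromosome. Among 12327 detected genes placed in the RefSeq order, 18 runs of at least 3 neighbours were all 2-fold apart in the same direction, 6 higher and 12 lower, the longest of 4 genes. The runs were counted without raising low values, and their genes were named because of their position. On chromosome 11, Taf15, Ccl5, Ccl9 and Ccl6 differed by 2.55, 1.17, 3.47 and 1.86, although Taf15, a general RNA-binding protein, had a single detected probe set. On chromosome 7, Trim12c, Trim30a, Trim30d and the deubiquitinase Usp17la differed by 1.09, 1.48, 3.19 and 2.82. Usp17la lay under the level on the ethanol array, and its raised difference was 2.02. On chromosome 19, Ifit2, Ifit3 and Ifit1 differed by 1.69, 1.26 and 1.25, and Scd3, Scd2 and Scd1 by -1.57, -1.12 and -2.44. Scd3 ended under the level, and its raised difference was -0.56.

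The lower runs included several with genes of fat cells. On chromosome 6, Syn2, a synapsin, Timp4, which lies inside it on the other strand, and Pparg differed by -3.72, -2.77 and -2.49. On chromosome 1, Hsd11b1, the lipase inhibitor G0s2 and Lamb3 differed by -3.96, -3.46 and -2.56, with Lamb3 ending under the level. On chromosome 7 the apolipoprotein genes Apoc2, Apoc4 and Apoc1 differed by -1.18, -1.11 and -3.23. The raised difference of Apoc2 was -0.028, so this run rests on a value under the level. Also on chromosome 7, Sbsn, Dmkn and the short-chain fatty acid receptor Ffar2 differed by -3.36, -3.43 and -2.74. Dmkn ended under the level, and its raised difference was -1.91. A run of a different kind, on chromosome 11, held the replication gene Tk1, Afmid and the mitotic gene Birc5 at -2.53, -1.74 and -2.50. Members of gene families that sit together can share probes, and how many such runs an order without structure would hold was not tested.

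The second array with ritonavir, which also received DMSO, had fewer genes apart. Against the same ethanol array there were 188 genes higher (1.52%) and 370 lower (2.99%), with a robust SD of 0.328. As both comparisons subtract that array, only their own values are set side by side. For the 25 largest upward genes the median difference was 2.78 on the ritonavir array and 1.05 on the array with DMSO, where values ran from -0.18 to 4.43, and on the tenofovir array it was -0.0055. For the 25 largest downward genes the medians were -4.82, -2.19 and -0.0095. The labels do not say whether the cells with DMSO also received ethanol, so the vehicles of these arrays are not fully known, and an effect of DMSO cannot be told apart from a difference between single arrays.

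Lists differed in how much of their difference appeared with DMSO. Medians were similar on both for lysosomal genes (0.53 and 0.46), interferon genes (0.39 and 0.31), hypoxia genes (-0.60 and -0.62), DNA replication (-0.53 and -0.53) and MAP kinase feedback (-0.54 and -0.78). They were apart for matrix proteases (0.77 and -0.19), chemokines (0.75 and 0.12), preadipocyte markers (0.54 and -0.34), adipocyte identity (-2.47 and -0.93), amino acid breakdown (-0.70 and -0.22) and the TCA cycle (-0.72 and -0.16). Respiratory chain genes were below 0 without DMSO and above it with it (-0.25 and 0.14), as were mitochondrial ribosomal proteins (-0.15 and 0.27). With 1 array each, these gaps have no error.

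**Figure D5:**
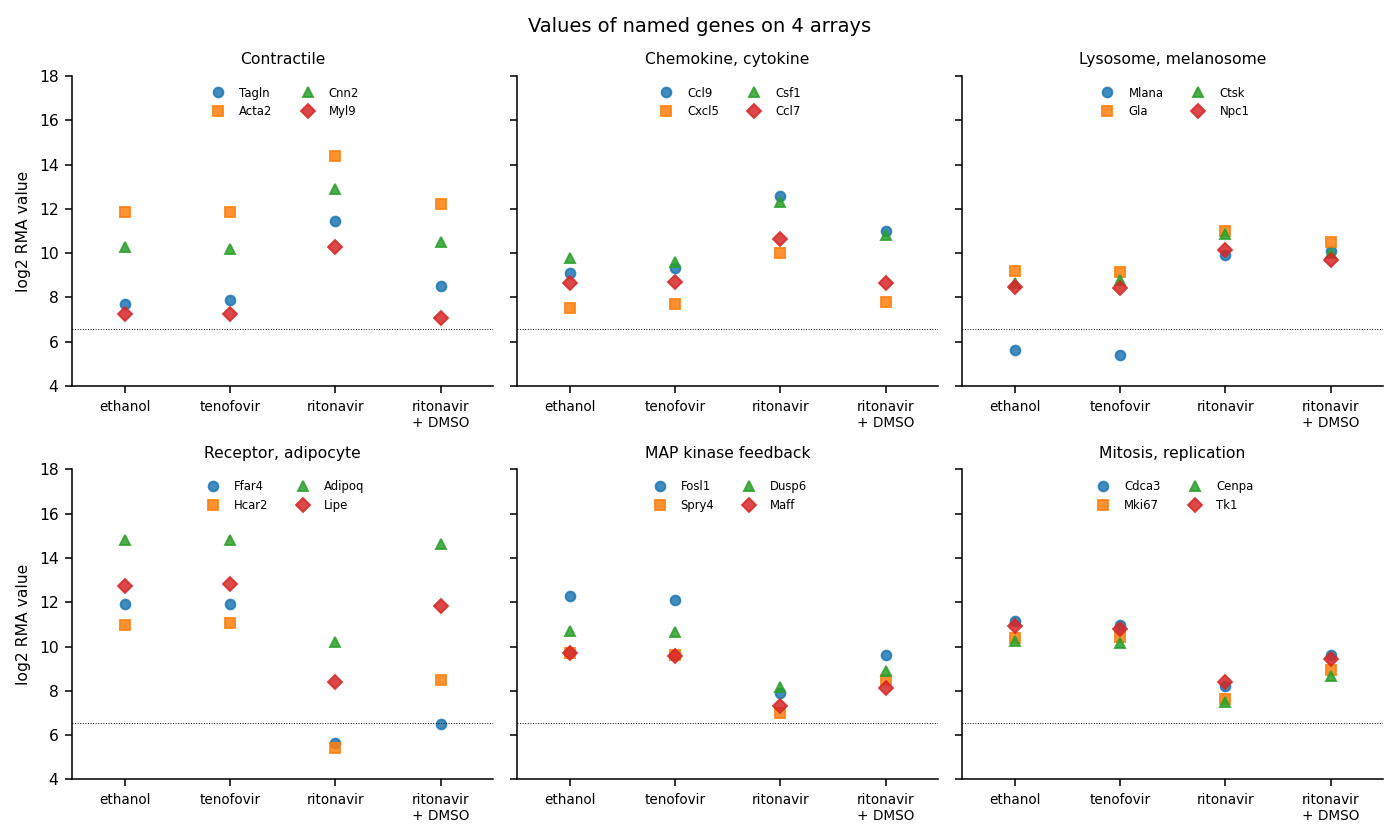
Log2 RMA values of 24 genes on the ethanol, tenofovir, ritonavir and ritonavir with DMSO arrays, 4 genes per panel, 1 array per group and the dotted line at the detection level of 6.55. Contractile genes stand high on the ritonavir array alone (Tagln 11.46, against 7.70 on ethanol), whereas Mlana and the MAP kinase feedback gene Fosl1 are shifted on both arrays with ritonavir.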

How the data were processed

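RNA pooled from 4 replicate experiments per group was amplified with a biotin label, and 1 Affymetrix mouse array was hybridised for each group, as the labels' protocols state. The authors deposited log2 values of 45101 probe sets on 6 arrays, between 2.17 and 15.01, made with RMA in Affymetrix Expression Console, per the submitters' processing notes, which here give neither version nor settings. RMA equalises the arrays' distributions, so a shift shared by most genes would be removed, and values near the top of the scale can be compressed. Precision is limited by the number of arrays.

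The unit of every difference is log2, ritonavir minus ethanol, computed from the deposited log2 values. Through the platform annotation 34958 probe sets had 1 symbol, 932 several and 9211 none listed, of which 51 are controls. Each gene is represented by the probe set whose mean over 6 arrays is highest. A gene was detected when it reached the table's median, 6.55, on at least 1 array, a convention, since the table has no detection calls. Genes at least 2-fold apart were counted, also after raising values under the level to that level.

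Named genes were taken from the 25 largest differences each way and up to 4 each way of every list, all ranked with raised values. Not all of these are described, and Retn, Cidec and Gpd1 are among the largest lower ones that the paragraphs above leave out. Also named are the lowest and highest member of a list and, where stated, genes chosen after their values were seen. Clone-type symbols are counted, not named. The members and the 72 lists were chosen with earlier results of these data known. A further list is not reported here. Promoter windows came from RefSeq tables of GRCm38.p6. Tests on simulated data covered the counts and the list medians. The alternatives averaged a gene's probe sets, kept only probe sets without cross-hybridising suffixes, dropped the detection filter or set it at 8.77, raised low values, repeated quantile normalization, removed the trend on mean level (lowess, span 0.3), set the threshold at 1.5-fold or 3-fold, or took the tenofovir array, alone or averaged with ethanol, as control. The software was Python 3.11.15, with pandas 2.3.3 and numpy 2.4.6 for tables, statsmodels 0.14.6 for lowess, scipy 1.17.1 for the robust SD and matplotlib 3.10.9 for figures.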

Additional observations from a re-analysis of the deposited data

Results flagged for a closer look

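Probe sets without a listed symbol also differed between the arrays. A missing symbol is a gap in the platform annotation used, and these probe sets can include known genes. Only 8 of the 10 listed adipocyte markers were named. Of 2396 detected probe sets without a listed symbol, 185 (7.72%) were at least 2-fold higher on the ritonavir array and 87 (3.63%) at least 2-fold lower, while 0 were 2-fold apart between tenofovir and ethanol. Among 21521 detected probe sets with 1 symbol the shares were 5.51% and 5.60%. With values under the detection level raised to it, 97 unnamed probe sets were higher and 75 lower. The largest raised upward differences were those of 1442710_at (6.79 to 9.23) and 1442977_at (7.12 to 9.41), and the largest downward ones those of 1417867_at (14.44 to 6.55) and 1428909_at (14.20 to 8.95). On the array of ritonavir with DMSO these 4 differed from ethanol by 0.27, 0.36, -1.61 and -2.08. Of 619 detected probe sets with several symbols, 34 (5.49%) were higher and 24 (3.88%) lower, again with 0 apart for tenofovir.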

How the results depend on the processing

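The count of 565 genes higher, 791 lower and 1356 in all stayed within 1.5 times under the alternatives of probe set choice, detection level, raised values, normalization, trend removal and control array, where it ranged from 410 to 594 higher, 608 to 858 lower and 1018 to 1393 in all. At 1.5-fold the counts were 1536, 1540 and 3076, and at 3-fold 178, 407 and 585. With the array of ritonavir with DMSO in its stead, a choice made after seeing the data, they were 188, 370 and 558. The median of all genes moved by 0.0419 with repeated quantile normalization, by -0.0128 with trend removal and by 0.0551 with the stricter detection level. Of 647 list medians recomputed, 91 moved by more than 0.113, the robust SD of tenofovir minus ethanol, and 49 changed sign; the stricter level moved 32 of 71, and the widest shift was 1.79. Of 2566 recomputed values of named genes, 2512 stayed at least 2-fold in the same direction, and 1 turned. Cavin1, at -1.67, differed by 0.22 when only probe sets without cross-hybridising suffixes were used; the cause was not tested. No paired analysis was possible because each group has 1 array of pooled RNA, and for the same reason no replicate could be left out. Values under the detection level have no reliable order, so folds resting on them are uncertain, and groups cannot be separated from the hybridisation of their single array.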
